A study of Blastobotrys raffinosifermentans with 8 samples.

Results

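The 42 genes described here were chosen by their measured values. In the yeast Blastobotrys raffinosifermentans they were higher with protocatechuic acid than without it at both 30 min and 2 h after a shift of medium, by a log2 difference of 0.8 or more at each time. A gene stands for the identifier that its probes carry, and its value for this choice is the median over its spots in the authors' table of log2 values. Of the 6092 identifiers with a chromosome letter, A to D, 6065 had 3 or more probes. The 20 lowest and the 20 highest numbers of each letter, a stretch of chromosome D from ARAD1D17292g to ARAD1D18150g, and ARAD1A09218g and ARAD1C00330g were left out by the rule, which left 5864 eligible identifiers. A further 18 identifiers met both differences but were among those left out.

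Wild-type cells of the strain LS3 were grown overnight in a minimal medium with glucose and nitrate. They were then moved either into such a medium with 1% glucose and 0.5% protocatechuic acid (PA) or into one with 1% glucose alone (Glc). Total RNA was taken at 15 and 30 min and at 2 and 5 h and hybridized with 1 dye to 8 arrays, 1 for each medium and time. No medium and time had a second array, so a difference at a single time had no replicate and was not tested, and with so few arrays the precision is low. The PA arrays and the Glc arrays lay in different rows of 1 slide, and effects of medium and of row cannot be told apart. The share of yeast spots well above background ran over the arrays between 58.9% and 70.2%. The 10 spike-in probes, whose RNA is meant to be added in equal amounts, had a median PA minus Glc value of -0.05 (15 min), -0.04 (30 min), -0.13 (2 h) and 0.38 (5 h), so the value at 5 h stands apart from the other three.

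Protocatechuic acid is a dihydroxylated aromatic acid that is set free when plant material such as lignin and tannin is broken down. Many microbes, filamentous fungi among them, open its ring directly with a protocatechuate dioxygenase. Other fungi first decarboxylate it, without oxidation to catechol or with oxidation to hydroxyquinol, and dioxygenases then open the ring of the product. Many yeasts use glucose first and hold genes for other carbon sources at a low level while glucose is present. A move into fresh medium can change transcript levels by itself, and each PA array was set against the Glc array of the same time.

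The study lists 24 identifiers for enzymes of tannin and protocatechuic acid breakdown and for enzymes of the metabolism below them. The array holds probes for 22 of them. None of these 24 is among the 42 members, and the 2 that met both differences, ARAD1A09218g and ARAD1C00330g, were left out by the rule. With the values used below, the number of these 22 that were higher in PA by 0.8 or more was 5 at 15 min and 2 at each later time. Of the eligible identifiers 8.05%, 2.23%, 2.61% and 1.47% were so at the 4 times. Those lower in PA by 0.8 or more numbered 0 at 15 min, 1 at 30 min, and 0 at 2 h and at 5 h. Of the 5864 eligible identifiers 226, 60, 90 and 142 were so at the 4 times. Over 15 min and 5 h together, 0 of the 22 passed in limma, either by Bonferroni or by Benjamini-Hochberg adjustment. At an unadjusted p under 0.05 in limma 3 were higher in PA and 0 lower, against 1.51% and 3.03% of all identifiers tested. With 4 arrays and 1 residual degree of freedom this fit cannot decide whether these genes respond. The study reports significant upregulation of pathway genes on its arrays, the catechol dioxygenase gene among them. By RT-PCR it also saw that gene rise with protocatechuic acid as the sole carbon source. Part of that list was chosen by the study on these arrays. Whether an array identifier of chromosome D stands for the gene that carries the same number in the study's annotation was not tested, which touches the chromosome D identifiers of that list and the 21 members on chromosome D. The files give no gene name or function for the members. The members are numbered from 1 to 42 in falling order of their mean difference over 30 min and 2 h in the authors' table, and 4 of them are given by identifier.

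The differences that chose the members are given as a description. In the authors' table the log2 differences of the 42 lay between 0.86 and 5.52 at 30 min, with a median of 1.52, and between 0.81 and 5.24 at 2 h, with a median of 1.20. Of the eligible identifiers 2.25% were at 0.8 or more at 30 min, 2.75% at 2 h and 0.716% at both. The member nearest to the threshold had 1.43 at 30 min and 0.81 at 2 h. The nearest eligible identifier outside had 1.74 at 30 min and 0.799 at 2 h, just under the threshold, with 0.82 at 15 min and -0.04 at 5 h.

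All values that follow are log2 signals in which the spots of a probe were averaged first and the gene is the median over its probes. An SD beside a difference is the spread over the probes of that gene on the same 2 RNA samples and not an error between cultures. On this scale 38 of the 42 members kept 0.8 or more at both 30 min and 2 h. The other 4 are members 11, 24, 35 and 38. The lower of their 2 differences was 0.74, 0.74, 0.58 and 0.70. Member 11 had 0.74 at 30 min on this scale, against 1.87 in the authors' table, and its 10 probes lay between -0.38 and 2.85. In 34 of the 42 members every probe was higher in PA at both 30 min and 2 h. This count rests on the arrays and probes that chose the members, so nothing is read from it.

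**Figure D1:**
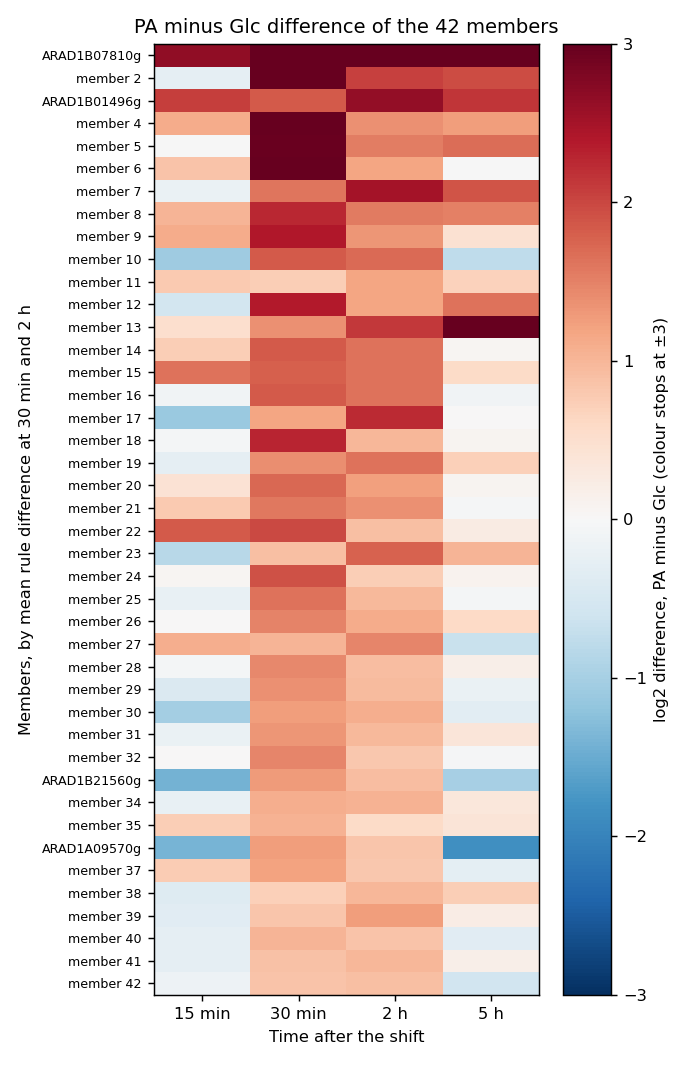
Log2 difference, PA minus Glc, of the 42 members (rows, ordered by their mean difference over 30 min and 2 h in the authors' table) at the 4 times (columns), with red for higher in PA and blue for lower in PA; the colour scale stops at 3 on either side. The columns at 30 min and 2 h are red by the choice of the members, while the columns at 15 min and 5 h hold both colours. At these 2 times 19 and 28 of the 42 members were above 0, beside 2126 and 2946 of the 5864 eligible identifiers.

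The highest signed difference of a member was at 30 min for 30, at 2 h for 11 and at 5 h for 1, member 13, a count that rests on the times that chose the members. Over the members the median log2 difference was -0.06 at 15 min and 0.20 at 5 h, the times the rule did not use, beside -0.12 and 0.00 over all eligible identifiers. With the median of the spike-in probes taken off, the median of the members at 5 h was -0.17. This step lowers the median of the eligible identifiers by the same amount, so the members stay above it by as much as before. The spike-in values come from a normalization over all spots, and those of the genes from one over the yeast spots. At 15 min their differences ranged from -1.42 to 2.67, and at 5 h from -1.83 to 4.14. At 5 h 13 of the 42 members lay above the highest spike-in probe, which was at 0.60, as did 3.82% of the eligible identifiers.

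At 15 min 9 of the 42 members (21.4%) were higher in PA by 0.8 or more and 6 (14.3%) were lower by as much, against 8.05% and 3.85% of the eligible identifiers. At 5 h 10 members (23.8%) were higher by 0.8 or more and 2 (4.76%) were lower, against 1.47% and 2.42% of the eligible identifiers. With the spike-in median taken off, 9 members were higher by 0.8 or more at 5 h, and the eligible identifiers were not counted on that scale. At both of these times together 4 members were higher by 0.8 or more, and 0.171% of the eligible identifiers (10 of 5864) were so. Of the 42 members, 22 were within 0.8 of zero at both times. By the shares given above, a larger part of the eligible identifiers lay within 0.8 at both times, though that part was not counted.

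**Figure D2:**
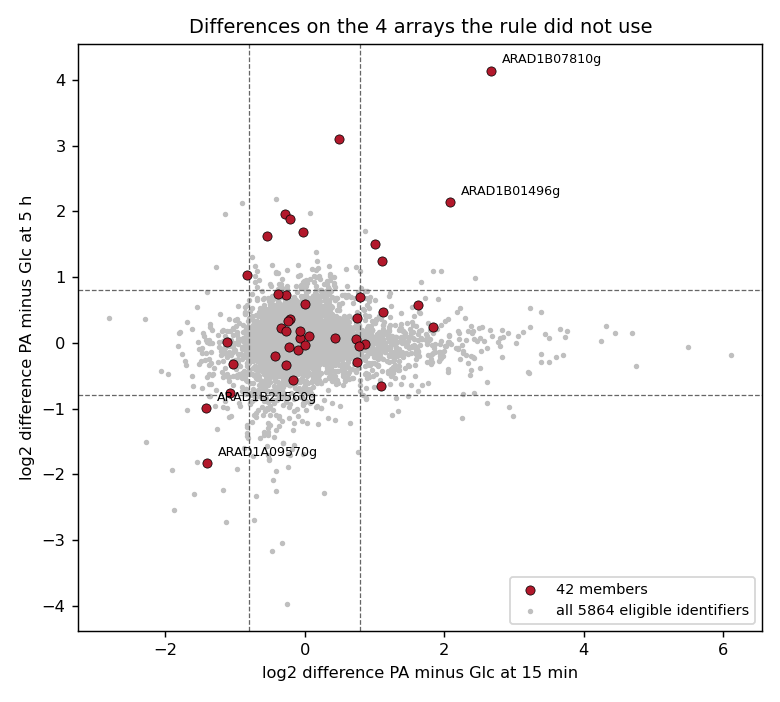
Log2 difference, PA minus Glc, at 15 min (x axis) and at 5 h (y axis) for the 42 members (red) and for all 5864 eligible identifiers (grey), with dashed lines at 0.8 on either side of 0. ARAD1B07810g and ARAD1B01496g lie at the upper right, ARAD1B21560g and ARAD1A09570g at the lower left, and 22 members lie within the central square.

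The 4 members that were higher by 0.8 or more at all times are ARAD1B07810g, ARAD1B01496g and members 4 and 8. The signal of ARAD1B07810g, member 1, was 11.70, 11.85, 11.39 and 10.86 in PA, in the order of the 4 times, against 9.03, 6.30, 6.17 and 6.72 in Glc. All 4 PA signals lay above all 4 Glc signals. The PA signals stayed within 1 log2 unit of each other, while the Glc signal was high at 15 min and lower at the 3 later times.

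ARAD1B07810g was higher in PA by a log2 difference of 2.67 ± 0.46 (15 min), 5.55 ± 1.62 (30 min), 5.22 ± 1.30 (2 h) and 4.14 ± 1.30 (5 h; SD over 8 probes), which corresponds to 6.37-fold, 46.8-fold, 37.3-fold and 17.7-fold higher signals. All 8 probes were higher in PA at each of the 4 times. It was the member with the widest difference at each of the 4 times, and the eligible identifier with the widest at 30 min, 2 h and 5 h.

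ARAD1B01496g, member 3, had signals of 7.77, 8.29, 9.31 and 8.41 in PA at the 4 times, against 5.68, 6.45, 6.67 and 6.26 in Glc. The PA signals again lay above all Glc signals, and here both media were lowest at 15 min and highest at 2 h. Its log2 difference was 2.08 ± 1.17 (15 min), 1.84 ± 1.23 (30 min), 2.64 ± 1.32 (2 h) and 2.15 ± 0.96 (5 h; SD over 10 probes), and it was above 0 for all 10 probes at each time. The difference thus varied less over the 4 times than over the probes.

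Member 4 had signals of 7.62, 7.84, 6.62 and 7.75 in PA at the 4 times, against 6.51, 4.75, 5.25 and 6.51 in Glc. Its Glc signal was low at 30 min and 2 h, when 1 and 2 of its 7 probes were well above background, and equal at 15 min and 5 h. On the array list it is the identifier just before the left-out stretch of chromosome D. Member 8, measured with 4 probes, had 8.74, 9.26, 8.26 and 7.55 in PA, against 7.73, 6.99, 6.70 and 6.04 in Glc. Its lowest PA signal, at 5 h, was below its highest Glc signal, at 15 min.

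The 5 members with all 4 PA signals above all 4 Glc signals are members 1, 3, 4, 9 and 13, and 0.631% of the eligible identifiers had such signals. This count takes in the arrays that chose the members. On the 4 arrays of 15 min and 5 h alone, 8 of the 42 members had both PA signals above both Glc signals and 5 of the 42 had both below, against 9.29% and 13.8% of the eligible identifiers.

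**Figure D3:**
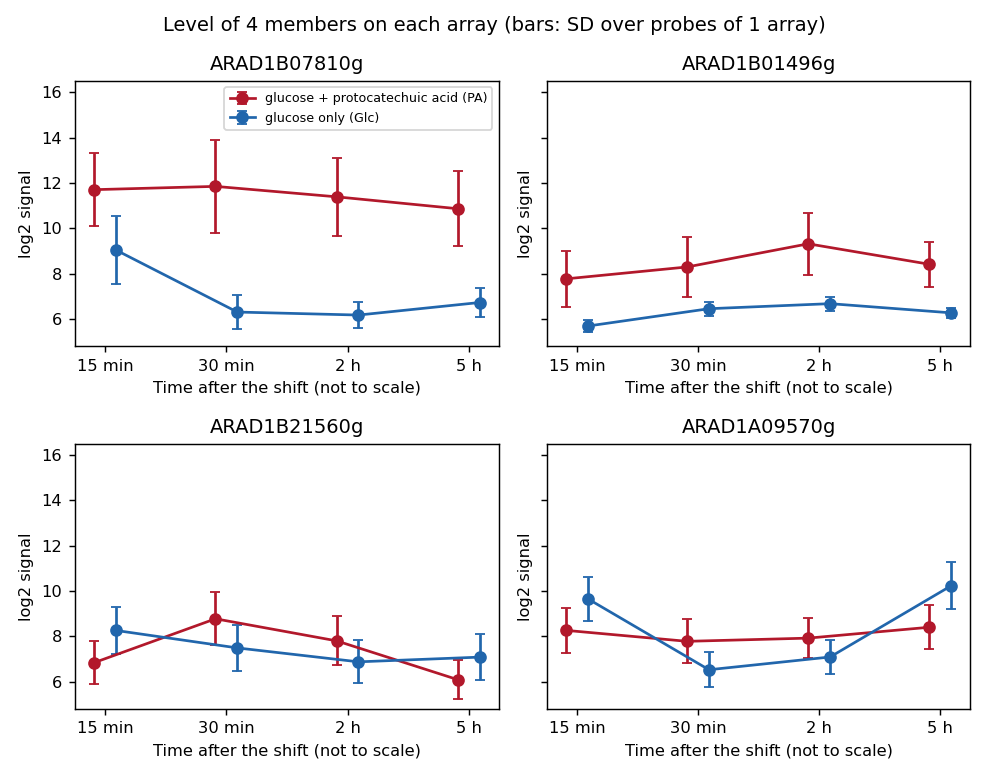
Log2 signal of ARAD1B07810g, ARAD1B01496g, ARAD1B21560g and ARAD1A09570g on each of the 8 arrays, PA in red and Glc in blue, against time after the shift (x axis, not to scale). Points are medians over the probes and bars are the SD over the 8 or 10 probes of 1 array; in the upper panels red lies above blue at each time, in the lower panels the lines cross, and blue lies above red at 15 min and 5 h.

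A further 5 members were higher by 0.86 to 1.84 at 15 min, but lay between -0.66 and 0.58 at 5 h. These are members 6, 9, 15, 22 and 27. Member 6 had PA signals of 5.83, 8.80, 6.41 and 5.06 at the 4 times, against Glc signals of 4.97, 5.52, 5.23 and 5.08. Its PA signal stood out at 30 min and was as low as in Glc at 5 h, when 0 of its 10 probes were well above background in PA and 4 were in Glc. Member 22 had signals of 11.61, 9.62, 9.47 and 10.67 in PA, against 9.76, 7.64, 8.58 and 10.43 in Glc. Both media were lower at 30 min and 2 h than at 15 min and 5 h in that gene.

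There were 6 members that were higher by 0.8 or more at 5 h and not at 15 min, where they lay between -0.83 and 0.49. These are members 2, 5, 7, 12, 13 and 23. Member 13 had PA signals of 5.35, 6.16, 7.10 and 8.03 at the 4 times, against Glc signals of 4.85, 4.79, 4.99 and 4.94. Its PA signal was higher at each later time, while the Glc signal stayed near the background, and the log2 difference at 5 h was 3.10 ± 0.86 (SD over 10 probes), with 3 of its 10 probes well above background in Glc at that time. At 30 min 0 of its 10 probes were well above background in Glc, and its PA signal at this time was at least 2.50-fold higher. This bound sets the PA signal against the higher of 2 values on the Glc array, the gene's own signal and the lowest signal among probes well above background.

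Member 7 had 6.17, 7.83, 9.44 and 9.59 in PA at the 4 times, against 6.38, 6.23, 6.95 and 7.71 in Glc. Both media were highest at 5 h. This gene has 4 probes, of which 3 were well above background on every array. Member 12 had 5.67, 7.95, 6.50 and 7.40 in PA, against 6.22, 5.58, 5.31 and 5.78 in Glc, so that its PA signal was the lower one at 15 min alone.

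At 15 min 6 members were lower in PA by 0.8 or more. Their differences lay between -1.42 and -0.83 at 15 min and between 0.89 and 1.84 at 30 min, so the direction differed between the first 2 times. The lowest was that of ARAD1B21560g, member 33, whose signals were 6.84, 8.77, 7.80 and 6.08 in PA at the 4 times, against 8.26, 7.48, 6.87 and 7.08 in Glc. The PA signal was highest at 30 min and the Glc signal at 15 min. Its log2 difference was -1.42 ± 0.15 (15 min), 1.29 ± 0.21 (30 min), 0.93 ± 0.26 (2 h) and -0.99 ± 0.25 (5 h; SD over 10 probes). Each of the 10 probes was lower in PA at 15 min and 5 h and higher in PA at 30 min and 2 h.

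ARAD1A09570g, member 36, had signals of 8.26, 7.78, 7.92 and 8.40 in PA at the 4 times, against 9.65, 6.52, 7.08 and 10.23 in Glc. The PA signals were nearly level, and the Glc signals were high at 15 min and 5 h and low at 30 min and 2 h. Its log2 difference was -1.39 ± 0.09 (15 min), 1.25 ± 0.24 (30 min), 0.83 ± 0.17 (2 h) and -1.83 ± 0.10 (5 h; SD over 10 probes), again in the same direction for all 10 probes at each time. The other 4 members of this kind are members 10, 17, 23 and 30. Member 10 had 9.43, 8.57, 7.90 and 8.18 in PA, against 10.50, 6.73, 6.20 and 8.94 in Glc. Member 23, one of the brightest, had 11.20, 11.15, 12.41 and 11.76 in PA, against 12.03, 10.26, 10.65 and 10.73 in Glc, and it is the member that was lower by 0.8 or more at 15 min and higher by 0.8 or more at 5 h.

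The change between 15 and 30 min is described for each medium. In 25 of the 42 members the PA signal at 30 min was higher than that at 15 min by 0.8 or more, as it was in 12.8% of the eligible identifiers. In 15 members the Glc signal at 30 min was lower than that at 15 min by 0.8 or more, as it was in 8.97% of the eligible identifiers. Since the signals at 30 min took part in the choice, nothing is read from these counts. Only 1 member, member 17, met both conditions, and 3 members met neither.

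In the 24 members with a higher PA signal at 30 min and no such lower Glc signal, the median change between 15 and 30 min was 2.01 in PA and 0.48 in Glc. Their median signal at 15 min was 5.79 in PA and 5.60 in Glc, close to the medians of 5.70 in both media over all eligible identifiers. Member 2 is the widest of these, with 4.96, 9.86, 7.30 and 7.39 in PA at the 4 times, against 5.23, 5.79, 5.23 and 5.42 in Glc. Its PA signal was higher by 4.90 at 30 min than at 15 min, and its Glc signal by 0.56.

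In the 14 members with a lower Glc signal at 30 min and no such higher PA signal, the median change between 15 and 30 min was 0.07 in PA and -1.44 in Glc. Their median signal at 15 min was 8.30 in PA and 7.81 in Glc. The split uses the signals at 15 and 30 min, so it sets in part how these medians at 15 min differ between the groups. ARAD1B07810g and ARAD1A09570g are among them. Between 15 and 30 min ARAD1B07810g changed by 0.15 in PA and by -2.73 in Glc, and ARAD1A09570g by -0.48 in PA and by -3.13 in Glc. At 5 h the median difference was 0.09 in the group of 24 and 0.40 in the group of 14, and no test was made between them.

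**Figure D4:**
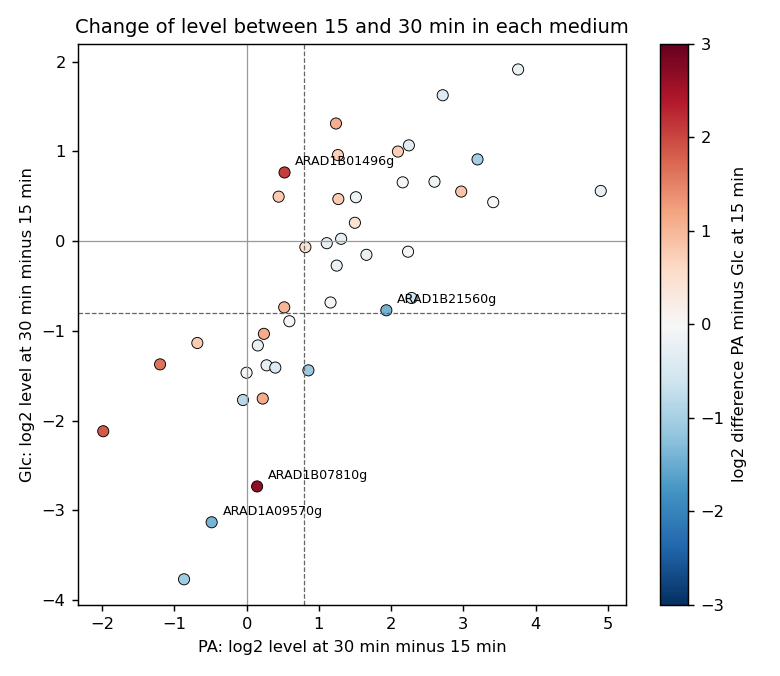
Change of the log2 signal between 15 and 30 min in PA (x axis) and in Glc (y axis) for the 42 members, coloured by their log2 difference, PA minus Glc, at 15 min (red for higher in PA, blue for lower in PA). Dashed lines mark 0.8 in PA and -0.8 in Glc; 25 members lie to the right of the vertical one and 15 below the horizontal one, with 1 member in both parts.

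The PA minus Glc difference over 15 min and 5 h was tested with limma on the 4 arrays that took no part in the choice, with the time as a block, which leaves 1 residual degree of freedom. All 42 members met the signal filter (a probe well above background on 2 or more of the 8 arrays) and were among the 6074 identifiers tested. None of the 42 passed the Bonferroni adjustment in limma, and neither did any other identifier (0%), with 0.404 as the smallest adjusted p over all identifiers. None of the 42, and again 0% of all, passed the Benjamini-Hochberg adjustment, with 0.838 as the smallest value among the members. At an unadjusted p under 0.05 in limma 8 of the 42 members were higher in PA and 3 of the 42 were lower, against 1.51% and 3.03% of all identifiers tested.

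The mean log2 difference over these 2 times in limma was 3.41 for ARAD1B07810g (standard error 0.40, unadjusted p = 0.00082, Benjamini-Hochberg adjusted p = 0.853) and 2.11 for ARAD1B01496g (standard error 0.19, unadjusted p = 0.000278, Benjamini-Hochberg adjusted p = 0.838). For ARAD1B21560g it was -1.21 in limma (standard error 0.22, unadjusted p = 0.00433, Benjamini-Hochberg adjusted p = 0.853), and for ARAD1A09570g it was -1.61 (standard error 0.22, unadjusted p = 0.00143, Benjamini-Hochberg adjusted p = 0.853). The first pair was higher in PA at 2 of 2 times and the second pair lower at 2 of 2. ARAD1B01496g, ARAD1B21560g and ARAD1A09570g were picked by their values on these same arrays, so their directions and p-values here are no independent support. The other 6 members higher at an unadjusted p under 0.05 are members 4, 8, 9, 11, 13 and 15, with means between 0.75 and 1.79, and the third lower one is member 10, with -0.91. The calls moved with the setting. ARAD1B07810g passed the Bonferroni adjustment in limma with the scanner software's processed signal (adjusted p = 0.0112), with median scaling (8.04e-12) and with trend and robust estimation (0.00236). ARAD1B01496g did so with the processed signal (0.0342) and with median scaling (2.80e-06), and ARAD1A09570g (0.00216) and member 13 (0.0103) did so with median scaling. By the Benjamini-Hochberg adjustment in limma 3 members passed with the processed signal, 9 with median scaling and 2 with trend and robust estimation. Over all identifiers tested 10, 172 and 10 passed under these settings.

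The same fit gave the change with time, 5 h minus 15 min over both media. None of the 42 members and 0% of all identifiers passed the Bonferroni adjustment in limma. After Benjamini-Hochberg adjustment 0 members and 1.37% of all identifiers passed, with 0.0679 as the smallest value among the members. Under some other settings the Benjamini-Hochberg adjustment in limma called members, given here beside the count over all 6074 identifiers tested. These were 8 beside 402 with an offset of 0, 10 beside 776 by the processed signal and 20 beside 1236 with median scaling. The mean over probes gave 5 beside 244 and the brightest probe 6 beside 519. With trend and robust estimation 11 were called beside 667. With median scaling 5 members and 273 identifiers in all passed the Bonferroni adjustment in limma. At an unadjusted p under 0.05 in limma 6 members (14.3%) had a higher signal at 5 h and 11 (26.2%) a lower one, against 14.9% and 9.89% of all identifiers. The widest of these in either direction were member 7, with 2.37 (standard error 0.54), and member 37, whose log2 change was -2.04.

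Member 37 had signals of 8.46, 7.78, 6.66 and 5.90 in PA at the 4 times, against 7.71, 6.57, 5.86 and 6.19 in Glc. Both media were lower at each later time but the last in Glc, and PA lay above Glc until 2 h. Between 15 min and 5 h, 16 members (38.1%) differed by 0.8 or more in either direction in PA and 18 (42.9%) in Glc, beside 25.5% and 16.3% of the eligible identifiers. These are descriptions of single arrays.

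The members were brighter than most genes also at the times that took no part in the choice. At 15 min the median member signal was 6.78 in PA and 6.70 in Glc, and at 5 h it was 6.94 in PA and 6.31 in Glc, beside medians of 5.70 to 5.73 over the eligible identifiers on these arrays. In Glc 28 of the 42 members lay above the eligible median at 15 min and 28 at 5 h. In all, 41 members had a probe well above background on all 4 PA arrays and 41 on all 4 Glc arrays. The eligible identifiers were not counted in this way, so these 2 counts do not set the members apart. Over both media, all 42 members and 5797 of the 5864 eligible identifiers had such a probe on 2 or more arrays. A log2 difference of a dim gene is understated on this scale, since a constant of 16 was added to each signal. The authors' table holds the same constant, so a dim gene could less easily pass the rule. How far the brightness of the members follows from the choice was not tested.

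The brightest member is member 24, with 12.71, 13.87, 12.64 and 12.52 in PA at the 4 times, against 12.65, 11.97, 11.89 and 12.42 in Glc. The media were nearly equal at 15 min and 5 h, with log2 differences of 0.06 ± 0.24 and 0.11 ± 0.16 (SD over 6 probes). At 30 min the difference was 1.90 ± 0.10.

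Identifier numbers run along each chromosome, and 5 members lie on chromosome A, 11 on B, 5 on C and 21 on D, which are 0.605%, 1.09%, 0.257% and 1.01% of the eligible identifiers there. In 6 places members had neighbouring identifiers on the array, in 5 pairs and 1 run of 3, and these places hold 13 of the 42 members. The files do not tell whether genes with neighbouring numbers share a strand or a promoter.

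The run of 3 lies on chromosome B and ends with ARAD1B07810g. The first and the middle gene of the run, members 21 and 14, resembled each other. The log2 differences of member 21 at the 4 times were 0.78, 1.58, 1.36 and -0.05, and those of member 14 were 0.74, 1.84, 1.64 and 0.05. ARAD1B07810g differed from both in being much brighter in PA, and in Glc at 15 min, and in staying higher in PA at 5 h. In Glc at 30 min its signal was 6.30, between 5.92 in member 21 and 6.40 in member 14. The identifiers on either side of the run lay between -0.44 and 0.57 at all 4 times.

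ARAD1B01496g and the identifier after it, member 18, form a pair on chromosome B whose courses were unlike. Member 18 had log2 differences of -0.07, 2.28, 1.00 and 0.08 at the 4 times. The pair on chromosome A, members 5 and 2, had like courses, with -0.02, 2.96, 1.53 and 1.68 in member 5 and -0.28, 4.06, 2.06 and 1.97 in member 2. The identifier before this pair, which is no member, had 1.78 at 30 min and 0.38 at 2 h. The one after it had 3.02 at 30 min and 0.77 at 2 h, where it lay just under the threshold, and -1.33 at 15 min. The identifier before this pair is itself the one after ARAD1A09570g, so that 5 identifiers in a row were higher at 30 min, by 1.25 to 4.06.

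Of the 10 probes of members 5 and 2, 6 each carry a suffix X whose meaning the sources used here do not give. Such probes occur in 7 of the 42 members and in 5.17% of the eligible identifiers. The 3 pairs on chromosome D are members 25 and 6, members 23 and 19, and members 20 and 8. In the first pair the differences were widest at 30 min, 1.63 and 3.28, and near 0 at 5 h, -0.06 and -0.02. In the second pair they were widest at 2 h, 1.77 and 1.62, and below 0 at 15 min, -0.83 and -0.27. In the third pair they were 1.73 and 2.27 at 30 min, and at 5 h they differed, with 0.08 and 1.51.

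**Figure D5:**
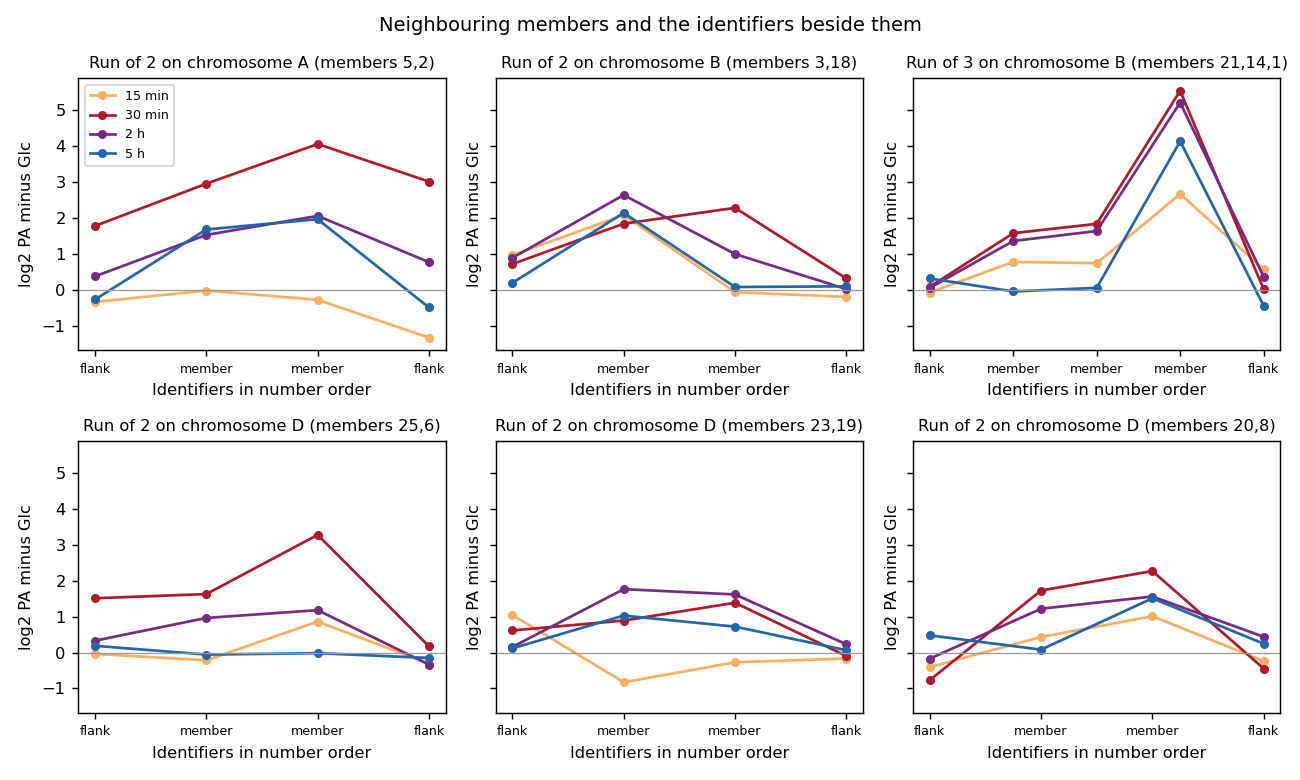
Log2 difference, PA minus Glc, at the 4 times (colours) for the 6 places where members have neighbouring identifiers, with the identifier before and after each as flanks, in the order of their numbers (x axis, not a distance). In the run of 3 on chromosome B the last member reaches 5.55 at 30 min and the flanks stay within 0.57 of 0, whereas on chromosome A the flanks reach 1.78 and 3.02 at 30 min.

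The 67 eligible identifiers next to a member that are not members themselves had a median difference of -0.07 (15 min), 0.09 (30 min), 0.14 (2 h) and 0.06 (5 h). Of the 67, those higher in PA by 0.8 or more at the 4 times numbered 7 (10.4%), 6 (8.96%), 1 (1.49%) and 1 (1.49%), beside 8.05%, 2.23%, 2.61% and 1.47% of all eligible identifiers. The values of neighbours were not tested.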

How the data were processed

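Total RNA from 8 samples, 1 per medium and time, was measured on 1-colour Agilent arrays of 62976 spots. The intensity values deposited in the scanner files are median spot and local background signals read with Agilent Feature Extraction 11.5.1.1, before any normalization. The authors' table is on the log2 scale, made with limma by normexp background correction and quantile normalization. It was recomputed to within 5.0e-09 with a normexp offset of 16, so nothing in it was centred and its direction is that of the signal. The column medians of the table lie between 5.66 and 5.67.

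The members and lists were chosen with earlier results of these data known. For the other values, limma 3.58.1 in R 4.3.3 was used. Normexp with an offset of 16 was fitted on all spots, and the 1439 control spots were left out. The signals of the 61537 yeast spots were quantile normalized and log2 transformed, and the 0 to 7 outlier spots per array were then left out. For each gene the median was taken over probes, after averaging the spots of a probe. No spot was saturated. The 56312 probes carry 6160 identifiers. A filter (1 or more probes well above background on 2 or more arrays) left 6074, which were tested with lmFit and eBayes (2-sided) on the arrays of 15 min and 5 h, with medium and time as terms, 1 residual and 3.27 prior degrees of freedom, and Bonferroni adjustment. The sources used here do not say whether each sample had a flask of its own. With 1 array per medium and time, the residual is how far the PA minus Glc difference at 15 min departs from that at 5 h. The p-values rest on this departure and on the prior, and not on a spread between repeated cultures or arrays. A gene whose difference truly changes between these times has a larger standard error for that reason. Script functions were tested on simulated data. Plots were made in Python 3.11.15 with matplotlib 3.10.9.

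Members given by identifier are the one with the largest mean difference over 30 min and 2 h, the largest of the others over 15 min and 5 h, the lowest at 15 min and the lowest at 5 h. Others that are singled out by number were chosen after their values were seen. No sequence and no reference annotation was used. The alternatives tried were offsets of 50 and 0, the processed signal minus its 75th percentile, median scaling, the brightest probe or the mean over probes, the authors' table, no filter, a filter of 4 arrays, Benjamini-Hochberg adjustment, trend and robust estimation, no time block, and a log2 difference of 1.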

Additional observations from a re-analysis of the deposited data

Results flagged for a closer look

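In 2 members given by identifier the PA minus Glc log2 difference was past 0.8 in opposite directions at different times. The values at 30 min are above 0 by the choice of the members, and these genes were picked for the lowest value at 15 min and at 5 h, so that opposite directions follow in part from the choice. ARAD1B21560g had -1.42 at 15 min and 1.29 at 30 min, in the same direction for 10 of 10 probes at each time. ARAD1A09570g had 1.25 at 30 min and -1.83 at 5 h, also for 10 of 10 probes. With 1 array per medium and time, the difference between the times was not tested in either gene, and the part of the array's place on the slide or of the culture's age in it was not tested.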

How the results depend on the processing

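The number of members at 0.8 or more at both 30 min and 2 h was 38, and 20 with an offset of 50, which draws all differences together. The members higher by 0.8 or more at 15 min numbered 9, with 14 by the processed signal and 15 with an offset of 0. Of the 5864 eligible identifiers 472 were so, with 861 by the processed signal and 670 with an offset of 0. Members lower by 0.8 or more at 5 h numbered 2, and 1 at a log2 difference of 1. With an offset of 50 there was 1, and by the brightest probe there were 4. Eligible identifiers lower by 0.8 or more at 5 h numbered 142, with 94 at an offset of 50 and 296 by the brightest probe. The counts at 5 h of members higher, at 15 min of members lower, and of members higher at both times stayed within 1.5 times under each alternative, as did the medians within the spread over probes. Identifiers past the Bonferroni adjustment in limma for the medium numbered 0, with 8 by the processed signal, 1 with an offset of 0, 40 with median scaling and 4 with trend and robust estimation. With median scaling 17 members had an unadjusted p under 0.05 in limma, against 11, and without the time block 4 had. Of all 6074 identifiers tested 640 had such a p with median scaling, against 276, and 64 without the time block. For the change with time, 0 identifiers passed the Bonferroni adjustment in limma, with 76 by the processed signal, 14 with an offset of 0, 273 with median scaling, 3 with the mean over probes, 1 by the brightest probe and 74 with trend and robust estimation, while 83 passed the Benjamini-Hochberg adjustment. Prior degrees of freedom were 3.27 in the fit reported, and 21.2, 58.3 and 20.8 with the processed signal, median scaling and trend and robust estimation; the cause of the counts was not tested. The median of all eligible identifiers at 15 min was -0.12, and -0.32 with the processed signal, -0.20 with an offset of 0 and -0.06 with an offset of 50. Of the 112 values of the 4 members given by identifier under other scalings, 96 stayed within the spread over probes, 16 moved further and 0 changed sign. By replicate number no paired analysis was possible because each medium and time has 1 array and hence 1 replicate number; PA and Glc arrays of the same time are paired by the time block of the fit reported. With 1 array per medium and time, leaving one out leaves no residual degree of freedom, and this was not run.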
